A study of Mus musculus with 15 samples.

Results

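*Klk5*, *Klk6*, *Klk7*, *Klk8*, *Klk9*, *Klk10*, *Klk11*, *Klk13* and *Klk14*, the kallikrein-related serine proteases of the epidermis, and *Spink5*, the gene of the kallikrein inhibitor LEKTI, were followed across 4 groups of mouse ears. The members were chosen by exact gene symbol, and all 10 of the 10 were found among the 21110 genes with a deposited value. RNA had been extracted from ears of C57BL/6 mice, with 1 library per mouse. The wild-type groups held 4 mice at 2 weeks and 3 mice at 10 weeks. The *Socs3* conditional knockout (cKO) groups held 4 mice at each age, and in these the gene is deleted in cells that express keratin 5, the keratin of basal keratinocytes. Fibroblasts and leukocytes keep the gene in this model, and the paper describes the deletion as one in keratinocytes. The sample labels name the source as keratinocytes, whereas the methods describe whole ear specimens, and markers of fibroblasts, cartilage, muscle and leukocytes were present in every group.

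Corneocytes at the skin surface are held together by corneodesmosomes, which are modified desmosomes built from desmoglein 1, desmocollin 1 and corneodesmosin. Kallikreins are made as inactive precursors by keratinocytes of the granular layer, activate each other outside the cell and cleave these junction proteins, so that corneocytes are shed. LEKTI restrains kallikreins until they near the surface, and its loss in humans causes Netherton syndrome, in which the stratum corneum detaches too early.

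Every level below is in FPKM, a fragment count scaled to the length of the gene and to the mapped reads of the library, so that levels of different genes are on 1 scale per unit length. Differences are given on the log2(FPKM + 0.1) scale, which understates the change of genes with low values, and fold changes are taken from that scale. A gene was called when limma gave a Benjamini-Hochberg adjusted p below 0.01 over all genes tested and the absolute log2 fold change (log2 FC) was at least 1. Mapped reads per library were estimated from the smallest values at 11100000 to 16800000, and the 3 wild-type libraries at 10 weeks stood apart, with 1414 to 3176 genes at 0 FPKM against 4044 to 4423 in the 12 others. Labelled cKO mouse 1 of 2 weeks had the highest FPKM sum, 671904 against 436293 to 611361 in the 14 others, and the fewest genes at 1 FPKM or more, 11698 against 12223 to 13251. *Socs3* itself averaged 10.2 FPKM in the wild type and 6.67 in mice labelled cKO at 2 weeks (limma adjusted p = 0.18), and 3.20 and 36.6 FPKM at 10 weeks, where it was called higher in the mice labelled cKO (limma adjusted p = 7.2e-05). The targeted gene therefore goes against the label at 10 weeks and does not settle it at 2 weeks. The deleted stretch of the gene is not given in the sources used here, and all directions below rest on the labels. The codes in the sample titles run in a separate range for each group, and what they stand for is not given, so that any batch they mark and the condition cannot be told apart.

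All 9 kallikrein genes lie on the plus strand of chromosome 7 within 160.8 kb of mm9, from 50945788 to 51106551, in the order *Klk14*, *Klk13*, *Klk11*, *Klk10*, *Klk9*, *Klk8*, *Klk7*, *Klk6* and *Klk5*. *Spink5* lies on another chromosome. Between 0% and 7.44% of the 32-base words in the exons of a member occurred elsewhere in the genome. *Klk14* had the highest share and *Klk7* had 2.18%, while *Klk5*, *Klk6*, *Klk8*, *Klk9*, *Klk10* and *Klk13* had none, so that few reads of these genes could be shared with other loci.

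*Klk10* and *Klk9* are neighbours on the chromosome that differed in opposite directions between the genotypes at 2 weeks, and *Klk10* was the one member called with age in the wild type. Their 250 bases upstream of the RefSeq transcription start are therefore shown, 5′ to 3′ on the plus strand of GRCm38.p6, at chr7:43780804-43781053 for *Klk10* and chr7:43791641-43791890 for *Klk9*. Capitals mark a match to the palindromic STAT motif TTCNNNGAA.
Klk10: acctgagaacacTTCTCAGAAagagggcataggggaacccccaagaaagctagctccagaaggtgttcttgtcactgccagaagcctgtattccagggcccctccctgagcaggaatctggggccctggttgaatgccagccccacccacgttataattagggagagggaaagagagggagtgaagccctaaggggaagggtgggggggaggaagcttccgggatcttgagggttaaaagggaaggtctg
Klk9: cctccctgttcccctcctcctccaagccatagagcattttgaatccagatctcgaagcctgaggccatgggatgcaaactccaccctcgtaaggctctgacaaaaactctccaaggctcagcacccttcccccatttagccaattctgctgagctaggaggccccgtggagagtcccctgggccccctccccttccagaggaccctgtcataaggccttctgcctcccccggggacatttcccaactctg
The match TTCTCAGAA begins at position -238 of *Klk10*, counted from the start site. Over windows from 250 bases before to 50 bases after the start, the motif was found in 1 of the 11 promoters listed for the 9 kallikreins, which was that of *Klk10*, and in 8.3% of all 32851 promoters. The AP-1 motif TGANTCA was found in 0 of the 11 promoters and in 7.81% of all promoters. Both motifs read the same on both strands, and no AP-1 match overlapped the STAT match. These are matches of letters, and binding was not measured.

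**Figure D1:**
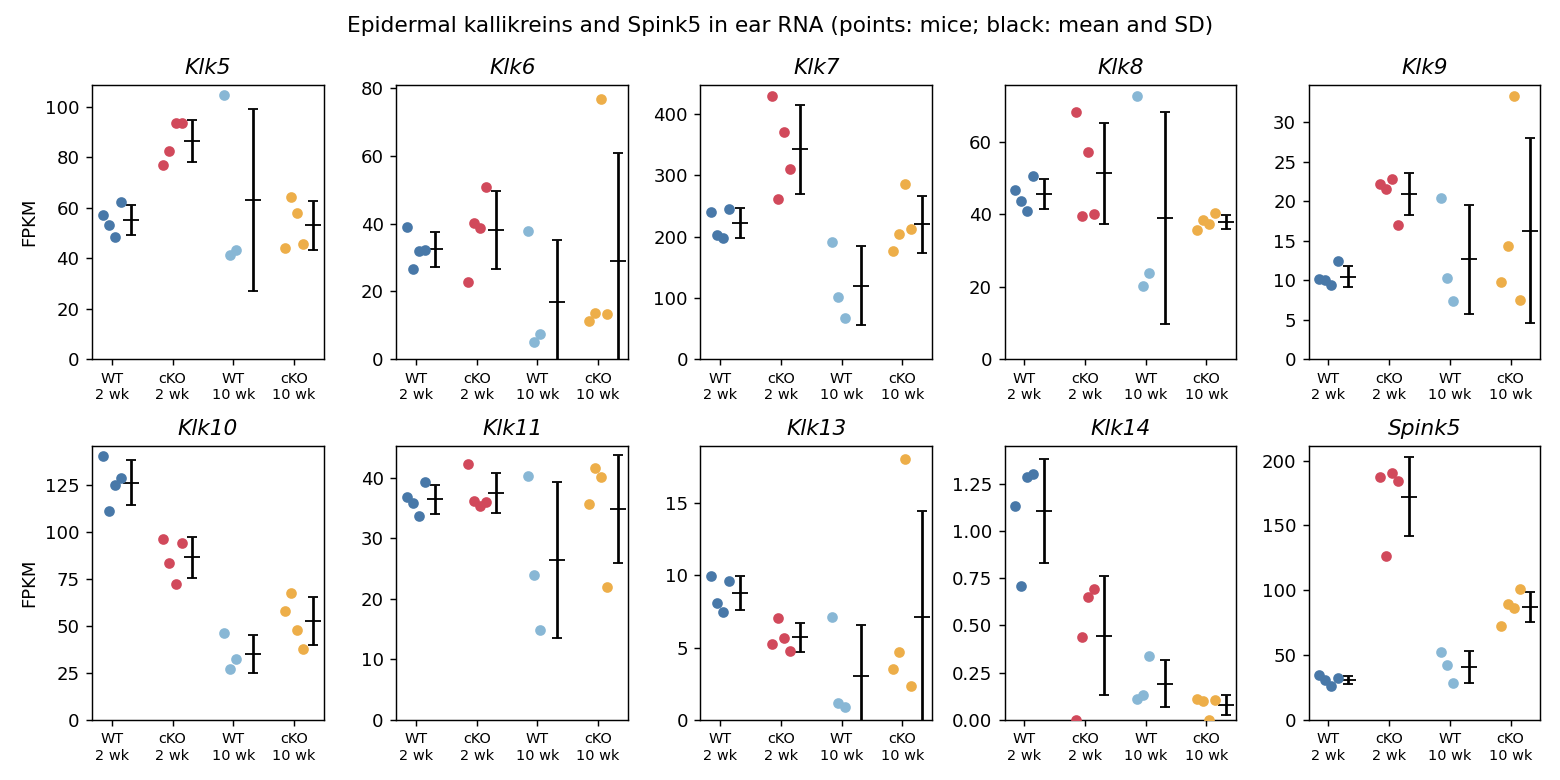
FPKM (linear axis from 0, own scale for each gene) of the 9 kallikreins and Spink5 in each of the 15 mice. Coloured points are mice, the black dash and bar are the group mean and SD, and bars that would run below 0 are cut at 0. Spink5 in the 4 mice labelled cKO at 2 weeks lies at 126 to 190.1 FPKM, above each other mouse, whereas most kallikreins overlap between groups at 10 weeks.

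The order of the members within the skin was led by *Klk7*, the chymotrypsin-like kallikrein that cleaves corneodesmosin. *Klk7* averaged 222 ± 24.5 FPKM (SD, n = 4) in the wild type at 2 weeks and gave 41.2% of the summed kallikrein FPKM there. *Klk10*, a member of uncertain protease activity, followed at 126 ± 11.9 FPKM (SD, n = 4), and the ranges of *Klk7*, *Klk10* and *Klk5* did not overlap with each other. *Klk5* (55.3 FPKM) and *Klk8* (45.6 FPKM) overlapped in range, and so did *Klk11* (36.4 FPKM), *Klk6* (32.4 FPKM) and *Spink5* (30.8 FPKM). *Klk9* (10.4 FPKM) and *Klk13* (8.77 FPKM) overlapped as well, and *Klk14*, a trypsin-like activator of the cascade, was lowest at 1.11 FPKM. In the mice labelled cKO at 2 weeks *Spink5* stood second, below *Klk7* and above *Klk5* in 4 of 4 mice, and it kept that place in 4 of 4 mice labelled cKO at 10 weeks. In the wild type at 10 weeks, neighbours in the order overlapped down to *Klk9*, although *Klk7* exceeded *Klk5* within each of the 3 mice.

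**Figure D2:**
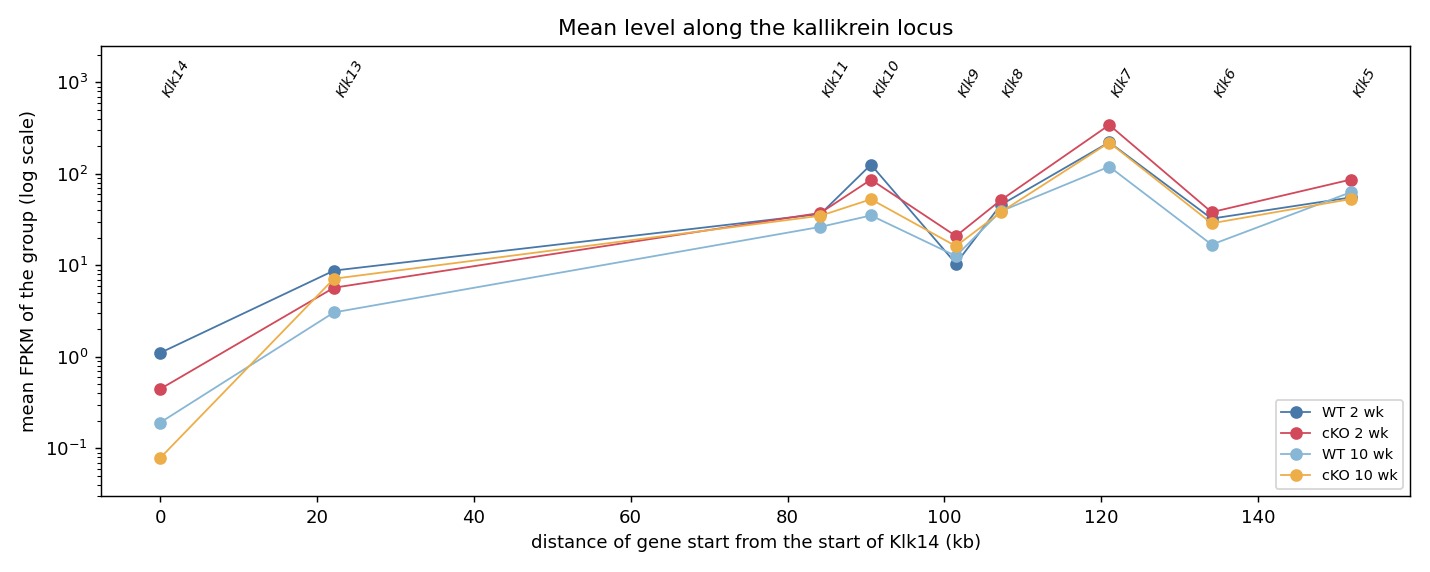
Group mean FPKM (log axis) of the 9 kallikreins against the distance of each gene start from the start of Klk14 (kb). Points are group means of 4 mice (3 for the wild type at 10 weeks) and lines only join them. Klk14 lies lowest in every group, from 0.0787 to 1.11 FPKM, and Klk7 highest, from 120.03 to 343 FPKM.

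At 2 weeks the inhibitor and the proteases differed unequally between the genotypes. *Spink5* rose 5.53-fold in the mice labelled cKO. The fitted level of *Klk9* was 1.99 times, that of the activator *Klk5* 1.57 times and that of the executor *Klk7* 1.53 times the wild-type level, while *Klk10* stood 1.46 times and *Klk13* 1.54 times below it. Of the 10 members, 1 was called, *Spink5*, which was higher, against 14.4% of the 13524 genes tested in either direction and 7.24% in the higher direction. *Klk5* and *Klk9* had an adjusted p below 0.01 with a log2 FC under 1, so that 3 members were below that p, against 18.6% of all genes. All 10 were tested, and *Klk14* passed the filter on low values through the wild type alone. Without labelled cKO mouse 1, whose library stood apart, *Spink5* was still the 1 member called (log2 FC 2.42), and *Klk8* and *Klk11* each had a log2 FC of -0.02. The summed level of 4 fibroblast markers ran from 8803 to 10354 FPKM among wild-type mice of 2 weeks and from 3779 to 5440 FPKM among mice labelled cKO. *Col1a1* (log2 FC -3.06) and *Col3a1* (-1.21) were called lower and *Dcn* (1.24) higher, and their part in the members' levels was not tested.

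*Spink5*, with 33 annotated exon blocks, is found on chromosome 18 (mm9, 44122889 to 44182155). It measured 34.2, 30.4, 26.3 and 32.2 FPKM in the wild type at 2 weeks and 188, 126, 190.1 and 185 FPKM in mice labelled cKO. Every mouse labelled cKO lay above every wild-type mouse, with no overlap. The log2 FC was 2.47 (SE 0.17, limma adjusted p = 6.48e-05) and ranked 129 among the 13524 genes. By exact permutation p was 0.0286, the smallest that 4 mice against 4 allow. *Spink5* was called in each of the 18 alternatives, with a log2 FC from 2.19 to 2.61.

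*Klk5*, the trypsin-like protease placed at the head of the cascade, measured 57.1, 53.1, 48.6 and 62.4 FPKM in the wild type and 76.9, 82.4, 93.8 and 93.6 FPKM in mice labelled cKO. The groups did not overlap, and the log2 FC was 0.65 (SE 0.13, limma adjusted p = 0.00704). *Klk7* measured 240.5, 203, 198 and 245 FPKM against 429, 261, 370.1 and 310 FPKM. It was again higher in every mouse labelled cKO (log2 FC 0.61, SE 0.18, limma adjusted p = 0.0256), without passing the threshold of 0.01. *Klk9*, whose substrates are little known, measured 10.1, 9.95, 9.33 and 12.4 FPKM against 22.2, 21.5, 22.9 and 17.0 FPKM. It had the largest difference of the 9 kallikreins in the higher direction (log2 FC 0.99, SE 0.15, limma adjusted p = 0.00227), just under the fold threshold. It was called, with *Spink5*, without wild-type mouse 4 (log2 FC 1.07), without the mouse labelled cKO 4 (1.09), and with median-of-ratios scaling (1.05), quantile normalization (1.22) or removal of the trend with length and GC content of the genes (1.24).

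*Klk10* measured 140.1, 111, 125 and 128 FPKM in the wild type and 96.1, 83.2, 72.3 and 94.2 FPKM in mice labelled cKO, with every mouse labelled cKO below every wild-type mouse. Its log2 FC was -0.55 (SE 0.14, limma adjusted p = 0.0155). *Klk13*, a protease of stratified epithelia, measured 9.98, 8.10, 7.43 and 9.58 FPKM against 5.26, 7.07, 5.67 and 4.79 FPKM. Its groups did not overlap either (log2 FC -0.62, SE 0.18, limma adjusted p = 0.0223). *Klk14* measured 1.13, 0.711, 1.28 and 1.30 FPKM against 0, 0.440, 0.651 and 0.693 FPKM. All mice labelled cKO lay below the wild type, and at these low values the log2 FC of -1.48 (SE 0.63) did not pass (limma adjusted p = 0.0808). None of the 3 lower members passed the threshold of 0.01.

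*Klk6*, *Klk8* and *Klk11* overlapped between the genotypes at 2 weeks, with log2 FC of 0.19, 0.14 and 0.04. *Klk8* is known for its role in wound healing and in shedding, and *Klk6* is abundant in the nervous system as well as in skin. Their intervals are wide for *Klk6*, with an SE of 0.25, and narrow for *Klk11*, with an SE of 0.12. In all, 7 of the 10 members did not overlap between the genotypes, 4 higher and 3 lower, against 56.1% of all genes tested, of which 22.9% were higher and 33.2% lower. The median log2 FC was 0.16 over the members and -0.21 over all genes tested. A share of 7 in 10 members is not far from that background. *Klk14*, among the 3 lower, passed the filter through the wild type alone, so that its direction follows from the filter.

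**Figure D3:**
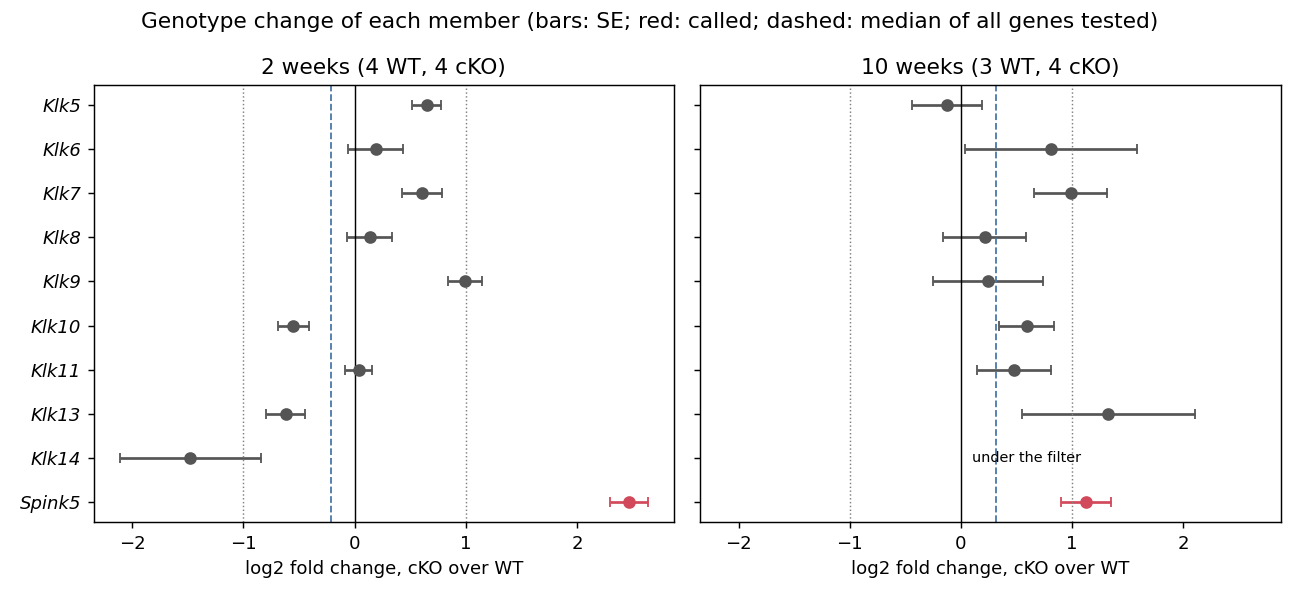
Log2 fold change (mice labelled cKO over wild type, log2(FPKM + 0.1) scale) of each member at 2 weeks (left) and 10 weeks (right). Points are limma estimates with SE bars, red marks called members, dotted lines the fold threshold and the dashed line the median of all genes tested. Spink5 is the called member on both sides, at 2.47 and 1.12, and Klk14 fell under the expression filter at 10 weeks.

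At 10 weeks the difference in the inhibitor was smaller and the proteases did not pass. *Spink5* was 2.18-fold higher in mice labelled cKO, *Klk7* was 1.98 times as high with overlapping groups, and the other tested kallikreins ranged from -0.12 (*Klk5*) to 1.32 (*Klk13*) in log2 FC. Of the 9 members tested, 1 was called, *Spink5*, against 14.9% of the 13105 genes tested in either direction and 12.5% in the higher direction. Among all called genes 83.7% were higher here, whereas median-of-ratios scaling gave 59.8%. The median log2 FC of all genes was 0.31 at 10 weeks and 0.02 after that scaling, and relative to the unscaled median *Spink5* was 0.81 higher.

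*Spink5* measured 52.6, 42.0 and 28.1 FPKM in the wild type at 10 weeks and 72.1, 89.0, 86.3 and 101 FPKM in mice labelled cKO. The groups did not overlap, as for 42.3% of all genes tested. The log2 FC was 1.12 (SE 0.23, limma adjusted p = 0.0051). By exact permutation p was 0.0571, the smallest that 3 mice against 4 allow. The direction held in all 18 alternatives, from 0.31 to 1.33, but the call was lost in 9 of them. These were median-of-ratios scaling (log2 FC 0.83), quantile normalization (0.93), removal of the length and GC trend (0.31, adjusted p = 0.21), the replicate block (1.05), and leaving out wild-type mouse 3 (0.88), labelled cKO mouse 2 (1.11), 3 (1.13) or 4 (1.05), or both wild-type mouse 1 and labelled cKO mouse 3 (1.33).

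*Klk7* measured 192, 102 and 66.4 FPKM in the wild type at 10 weeks and 177, 205, 287 and 212 FPKM in mice labelled cKO. Wild-type mouse 1 lay within the range of the mice labelled cKO and the other two below it. The log2 FC was 0.99 (SE 0.33, limma adjusted p = 0.0391), and without wild-type mouse 1 it was 1.39 and called (adjusted p = 0.00828). *Klk10* measured 46.3, 26.8 and 32.1 FPKM against 58.2, 67.3, 47.8 and 37.8 FPKM. These groups overlapped in range, with a log2 FC of 0.59 (SE 0.25, limma adjusted p = 0.0836). *Klk14* stayed at or below 0.336 FPKM in every 10-week mouse and was not tested.

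At 10 weeks 2 mice stood apart in *Klk6*, *Klk9* and *Klk13*. *Klk6* measured 37.9, 5.16 and 7.45 FPKM in the wild type and 11.2, 13.7, 76.9 and 13.4 FPKM in mice labelled cKO. *Klk13* measured 7.10, 1.20 and 0.889 FPKM against 3.51, 4.72, 18.0 and 2.31 FPKM, and *Klk9* measured 20.4, 10.2 and 7.30 FPKM against 9.78, 14.3, 33.3 and 7.53 FPKM. Wild-type mouse 1 and labelled cKO mouse 3 were the high mouse of their group for all 3 genes. Labelled cKO mouse 3 held 6.03 times the mean *Klk6* of the other mice in its group, 5.14 times the *Klk13* and 3.16 times the *Klk9*. The same mouse had 632 FPKM of *Krt6b*, a keratin of wounded and hyperproliferative epidermis, against 28.3 to 31.9 FPKM in the others, and 1134 FPKM of *Krt16* against 283 to 306 FPKM. Wild-type mouse 1 held 6.02 times the *Klk6*, 6.81 times the *Klk13*, 3.31 times the *Klk8* and 2.49 times the *Klk5* of the other wild-type mice, with *Krt6b* at 4.42 FPKM inside their range of 2.64 to 7.14 FPKM. Its summed granular layer markers were 18912 FPKM against 9485 and 10177 FPKM. The part of these markers in the kallikrein levels was not tested.

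**Figure D4:**
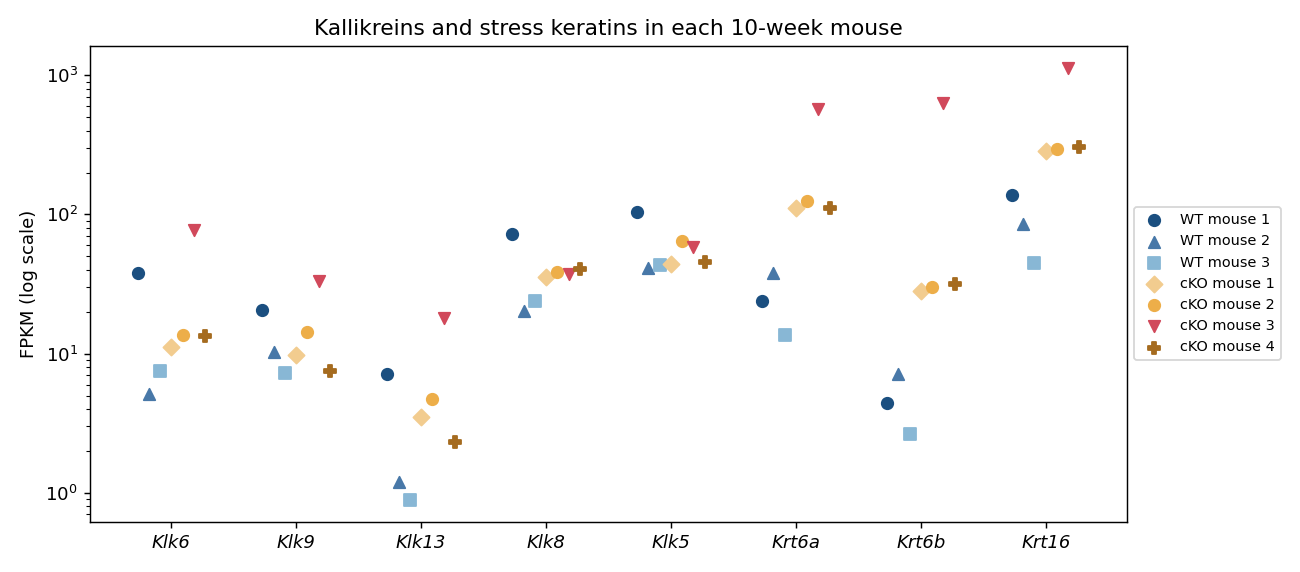
FPKM (log axis) of 5 kallikreins and 3 stress keratins in each of the 7 mice at 10 weeks, 1 marker shape and colour per mouse. Labelled cKO mouse 3 is the highest for Klk6, Klk9 and Klk13 (76.9, 33.3 and 18.0 FPKM) and for the 3 keratins, and wild-type mouse 1 is the highest for Klk8 and Klk5 (72.7 and 104.9 FPKM).

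None of *Klk5*, *Klk8*, *Klk9* and *Klk11* passed the threshold at 10 weeks, and their groups overlapped. *Klk8* measured 72.7, 20.1 and 23.8 FPKM in the wild type and 35.6, 38.6, 37.4 and 40.3 FPKM in mice labelled cKO. Its mice labelled cKO were close together, and the wild-type mice lay on both sides of them. *Klk5* had a log2 FC of -0.12 (SE 0.32), which was 0.31 without wild-type mouse 1. *Klk11* had a log2 FC of 0.48 (SE 0.33).

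With age, kallikrein levels in the wild type were lower at 10 than at 2 weeks for *Klk10*, the member that was called, and several others differed in the same direction without passing. Of the 10 members tested, 1 was called, against 25.5% of the 13937 genes tested on all 15 mice and 19.4% in the lower direction, and of the called genes 24.2% were higher, a share that was 43.8% with median-of-ratios scaling. *Klk10* fell 3.67-fold, from a mean of 126 to 35.1 FPKM (log2 FC -1.88, SE 0.21, limma adjusted p = 1.59e-05). Each 10-week mouse lay below each 2-week mouse, and *Klk10* was called in all 26 alternatives. *Klk13* (log2 FC -2.07, limma adjusted p = 0.0162), *Klk14* (-2.10, 0.0106) and *Klk7* (-1.01, 0.0106) missed the threshold. With *Klk10*, they were the 4 of 10 members whose groups did not overlap, against 66.8% of all genes. *Klk14* passed the filter on low values through the 2-week wild type alone, so that its lower direction follows from the filter.

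How many members passed in the wild type depended on the mice in the fit. Without wild-type mouse 1 of 10 weeks, 5 members were called, namely *Klk10*, *Klk13* (log2 FC -2.96), *Klk6* (-2.35), *Klk7* (-1.42) and *Klk8* (-1.05). Over all genes, 2302 of 13850 were called in that fit, against 3559 of 13937 with all mice. Leaving out a mouse labelled cKO, which changes the shared spread and the genes tested, also added calls. These were *Klk7* and *Klk14* (3 called in all) without mouse 1 of 2 weeks, *Klk7* (2 in all) without mouse 2 of 2 weeks, and *Klk13* (2 in all) without mouse 3 of 10 weeks. In the same order, these fits called 4519 of 13909, 3778 of 13909 and 3416 of 13898 genes. *Spink5* differed by 0.37 (SE 0.21, limma adjusted p = 0.16) between the ages in the wild type, with overlapping groups.

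In the mice labelled cKO limma called 0 of 10 members between the ages, against 3.54% of all genes tested. At any fold, 1 member, *Spink5*, had an adjusted p below 0.01, as did 4.02% of all genes. *Spink5* fell from a mean of 172 to 87.1 FPKM (log2 FC -0.97, SE 0.20, limma adjusted p = 0.00641), with every 10-week mouse below every 2-week mouse. It passed the fold threshold too without mouse 2 of 2 weeks (-1.11), without mouse 4 of 10 weeks (-1.05) and with median-of-ratios scaling (-1.01). *Klk14* was called (-2.0) without mouse 1 of 2 weeks, in which it was at 0 FPKM. All 10 members had a negative log2 FC, from -1.31 (*Klk14*) to -0.13 (*Klk13*), with a median of -0.68, against a median of 0.11 over all genes tested. The mean FPKM of *Klk13* went the other way, from 5.70 to 7.15, with labelled cKO mouse 3 of 10 weeks at 18.0 FPKM. With *Spink5*, *Klk5* (means of 86.7 and 53.1 FPKM, limma adjusted p = 0.0797) and *Klk10* (86.4 and 52.8 FPKM, limma adjusted p = 0.0309) were the 3 of 10 members that did not overlap between the ages, against 14.5% of all genes.

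The difference between the genotype effects at the 2 ages was tested as an interaction, for which an adjusted p below 0.01 alone counted as a call. Of the 10 members, 2 were called, against 25.6% of all genes, and 72.4% of the called genes had a positive interaction, a share that was 45.4% with quantile normalization. *Spink5* had a smaller genotype difference at 10 than at 2 weeks, by -1.34 (SE 0.29, limma adjusted p = 0.00292). *Klk10* had a difference of 1.14 (SE 0.29, limma adjusted p = 0.00703), from -0.55 at 2 weeks to 0.59 at 10 weeks, against a median of 0.55 over all genes. *Klk13* had the highest estimate, 1.94 (SE 0.88, limma adjusted p = 0.0806), which was 2.24 and called without both 10-week mice that stood apart. The *Spink5* call was lost without wild-type mouse 1 of 10 weeks (-1.14, adjusted p = 0.01, just above the threshold) and without both 10-week mice that stood apart (-1.14, 0.0196). The *Klk10* call was lost in 12 of 26 alternatives. Those were median-of-ratios scaling (0.78, 0.0603), removal of the length and GC trend (1.05, 0.0158), and leaving out any 1 of the 4 wild-type mice of 2 weeks, wild-type mouse 2 or 3 of 10 weeks, mouse 3 of the 2-week mice labelled cKO, or mouse 1, 2 or 3 of the 10-week mice labelled cKO, with values from 0.97 to 1.20.

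The summed kallikrein RNA was then set against *Spink5* RNA in each mouse. Which of the 9 members LEKTI inhibits was not measured, so that the ratio describes RNA levels and not inhibition. The summed FPKM of the 9 kallikreins in the wild-type mice of 2 weeks was 582, 492, 496 and 581, and divided by *Spink5* it gave 17.0, 16.2, 18.9 and 18.1. In mice labelled cKO at 2 weeks the sum was 763, 571, 697 and 647, and the ratio was 4.07, 4.52, 3.66 and 3.51. The ratios of the groups did not overlap, with means of 17.5 and 3.94, while the sums did. At 10 weeks the ratio of the wild-type mice was 9.91, 5.49 and 7.0 and that of the mice labelled cKO 5.21, 5.05, 6.93 and 3.77, and these ranges overlapped. No p is given for the ratio, since it follows from the members' own levels.

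Composition differed too. *Klk10* made up 23.5% of the summed kallikrein FPKM in the wild type at 2 weeks and 13.02% in mice labelled cKO, but 12.3% and 12.1% at 10 weeks. *Klk7* made up 41.2% and 50.7% at 2 weeks, and 38.3% and 49.1% at 10 weeks. *Klk5* made up 10.3% in the wild type at 2 weeks and 20.0% at 10 weeks.

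**Figure D5:**
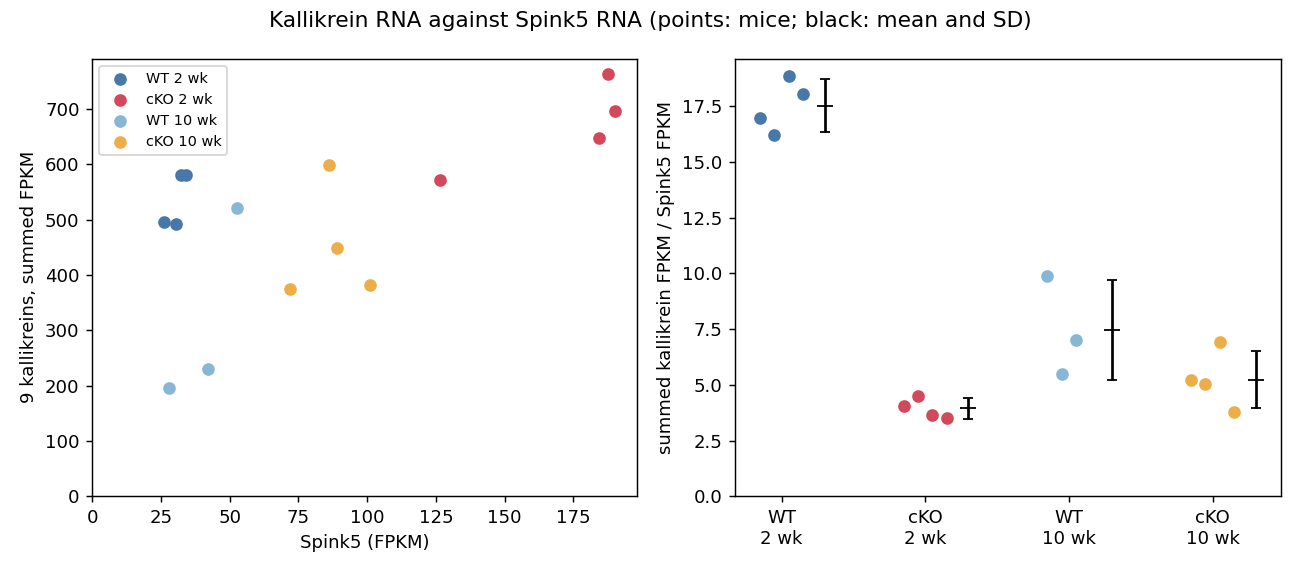
Left, summed FPKM of the 9 kallikreins against Spink5 FPKM for each of the 15 mice (linear axes from 0). Right, the ratio of the same quantities for each mouse, with the group mean and SD in black. The ratio lies between 16.2 and 18.9 for wild-type mice of 2 weeks and between 3.51 and 4.52 for mice labelled cKO of that age, and the 10-week groups overlap.

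Granular layer cells make both the kallikreins and LEKTI, and their markers moved unevenly at 2 weeks. Of 13 granular markers, 4 were called higher and none lower at 2 weeks, among them *Hrnr* (log2 FC 3.36), *Krtdap* (2.04) and *Flg2* (1.65). *Tgm3* (-1.05), *Lor* (-1.0), *Krt1* (-0.99), *Cdsn* (-0.62), *Krt10* (-0.54) and *Tgm1* (-0.19) had negative log2 FC that were not called, and the median of the list was 0.29. The mean of *Krtdap* alone went from 1650 to 7183 FPKM, and the summed FPKM of the list ran from 7381 to 9176 among wild-type mice and from 12648 to 16257 among mice labelled cKO. Per 1000 FPKM of these markers, *Spink5* ran from 3.51 to 4.16 FPKM among wild-type mice and from 10.0 to 12.4 FPKM among mice labelled cKO, and the groups stayed apart. The summed kallikreins per 1000 FPKM of the same markers ran from 63.1 to 70.6 among wild-type mice and from 39.8 to 49.8 among mice labelled cKO, which is the reverse order of the plain sums. That order depends on the make-up of the list, in which *Krtdap* was the highest marker in mice labelled cKO and *Krt10* (mean of 3031 FPKM) in the wild type. *Krt1* and *Krt10* are also made below the granular layer, so that the list does not stand for granular cells alone. At 10 weeks *Spink5* per 1000 was 2.78 to 4.13 FPKM against 7.33 to 10.2 FPKM, again apart, and 1 granular marker, *Lor*, was called lower (log2 FC -2.62). The summed kallikreins per 1000 at 10 weeks were 20.7 to 27.6 FPKM in the wild type and 38.5 to 50.8 FPKM in mice labelled cKO. These were also apart, in the direction opposite to that at 2 weeks. In bulk ear RNA, fewer cells of a type and less RNA per cell cannot be told apart.

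Hair follicle markers were lower in 2 of the 3 comparisons in which *Klk10*, *Klk13* and *Klk14* had negative log2 FC. At 2 weeks 8 of 8 hair shaft keratins and 8 of 8 inner root sheath markers were called lower in mice labelled cKO, and with age in the wild type the same counts were called lower. Over all genes tested, 14.4% and 25.5% were called in these comparisons, in either direction. All 8 hair shaft keratins stayed under 1 FPKM in every wild-type mouse of 10 weeks. They passed the filter on low values mainly through the wild type at 2 weeks, so that their lower direction largely follows from the filter. With age in the mice labelled cKO, where the 3 members had log2 FC of -0.73, -0.13 and -1.31, limma called 0 of 8 and 0 of 8, with 1 and 2 at an unadjusted p below 0.05. The summed hair shaft FPKM ran from 676 to 1112 among wild-type mice of 2 weeks, from 1.07 to 13.8 among mice labelled cKO of that age, from 0.623 to 1.72 among wild-type mice of 10 weeks and from 0.153 to 12.2 among mice labelled cKO of 10 weeks. The part of these cells in the 3 members' levels was not tested. The group in which hair markers were high is also the group in which *Klk10* was at 111 to 140.1 FPKM, above all mice of the other groups. *Klk13* did not keep that order, at 7.43 to 9.98 FPKM there and 18.0 FPKM in labelled cKO mouse 3 of 10 weeks. *Klk14* was also highest in that group, at 0.711 to 1.30 FPKM. It passed the filter on low values through that group alone, so that its place follows from the filter.

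The rest of the locus was low in ear. Of 17 other kallikrein genes, 15 stayed under 1 FPKM in every mouse, and the summed level of the 17 ran from 0.93 to 4.03 FPKM. *Klk12* reached 1.5 FPKM in its highest mouse of both the wild type at 10 weeks and the mice labelled cKO at 2 weeks. *Klk15* had a mean of 2.56 FPKM in the wild type at 2 weeks against 0.0299 FPKM in mice labelled cKO, and it was called lower (log2 FC -4.44, limma adjusted p = 6.48e-05). It passed the filter on low values through the wild type alone, so that the lower direction follows from the filter.

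Other protease inhibitors of skin and serum were set beside *Spink5*. Of 12 tested at 2 weeks, 7 were called higher and 1 lower, with a median log2 FC of 1.53 against -0.21 over all genes. *A2m*, the broad protease trap alpha-2-macroglobulin, had a log2 FC of 4.81. *Serpina3n*, a serpin of the acute phase, had 3.17 and *Slpi*, an inhibitor of neutrophil elastase, had 2.90. *Spink6*, another Kazal-type inhibitor of kallikreins, was called lower (-1.64). At 10 weeks 2 of 11 inhibitors were called higher, *Serpina3n* (1.98) and *A2m* (1.83).

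Corneodesmosome substrates were called higher for 5 of 9 genes at 2 weeks and 3 of 9 at 10 weeks, with none called lower. The rest of the list, *Jup* (-1.09), *Pkp1* (-0.80), *Cdsn* (-0.62) and *Dsp* (-0.36), had negative log2 FC at 2 weeks that were not called. The summed list overlapped there, at 925 to 1108 FPKM in the wild type and 690 to 1448 FPKM in mice labelled cKO. At 10 weeks the lowest log2 FC of the list was 0.21 (*Flg2*). The desmoglein *Dsg1c* (log2 FC 2.49 at 2 weeks and 4.03 at 10 weeks), *Dsg1b* (2.14 and 4.05) and the desmocollin *Dsc1* (2.31 and 3.39) were called at both ages. *Dsg1b* and *Dsg1c* are near-identical copies, and how reads were split between them is uncertain. Other epidermal proteases and activators were called higher for 3 of 19 and lower for 2 of 19 at 2 weeks. *Tmprss11f* (2.56), *Ctsl* (1.16) and *Asprv1*, which processes profilaggrin (1.06), were higher, and *Prss22* (-1.51) and *Plat*, the tissue plasminogen activator (-1.38), were lower. At 10 weeks 3 of 20 were called higher, *Tmprss11e* (3.38), *Ctsc* (1.45) and *Pcsk6* (1.01).

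*F2rl1* encodes PAR2, the receptor that *Klk5* and *Klk14* cleave to signal to keratinocytes. Of 4 genes tested on this list at 2 weeks, *Il1a* was called higher (log2 FC 2.11) and *F2rl1* lower (-1.09). At 10 weeks 3 of 5 were called higher, *Il1b* (4.88), *F2rl1* (1.34) and *F2r* (1.10). At that age 4 of 6 leukocyte markers were called higher, with a summed FPKM between 52.2 and 74.2 for wild-type mice and between 105 and 148.2 for mice labelled cKO, and their part in these levels was not tested.

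After subtraction of group means over the 15 mice, Pearson r was 0.95 for *Klk9* with *Klk13* and 0.90 for *Klk6* with *Klk13*. The 2 mice that stood apart at 10 weeks are among the points, and the genes of a point share library and depth, so the values are a description. Among 13937 genes, the pattern over 15 mice most like *Spink5* was that of *Hiatl1* (r = 0.98) and *Tmem45a* (0.98). The most like *Klk7* were *Rptn*, repetin of the cornified envelope (0.95), and *Gdpd1* (0.95), and the most like *Klk6* were *Stfa2* (0.93) and *Rbp2* (0.92). For *Klk13* they were *Stfa1* (0.93) and *Gjb6* (0.91), and for *Klk5* they were *Crct1* (0.92) and *Tmem54* (0.89). *Klk8* was nearest to *Ivl*, involucrin (0.84), and *Nsfl1c* (0.79), and *Klk9* to *Trex2* (0.86) and *Krt78* (0.86). *Klk11* was nearest to *Nipal2* (0.91) and *Clec2g* (0.90), *Klk10* to *Taco1* (0.95) and *Actg2* (0.95), and *Klk14* to *Nes* (0.95) and *Sost* (0.95). These likeness values include the differences between the 4 groups. After subtraction of group means, *Klk10* had r of 0.79 with *Taco1* and 0.55 with *Actg2*. The other pairs named had r from 0.74 (*Klk8* with *Nsfl1c*) to 0.94 (*Klk6* with *Stfa2*). *Klk14* passed the filter through the wild type at 2 weeks alone.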

How the data were processed

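Groups and replicate numbers came from the sample labels. Of the wild-type animals that the methods state (6 at 2 weeks, 4 at 10 weeks), 4 and 3 were at hand, and the others were not analysed here. Per the labels and methods, the authors aligned single 50-base reads to mm9 with TopHat2 (version 2.1.0) and deposited 1 FPKM value per gene symbol and mouse. The tool that made the FPKM values is not stated apart from a mention of Cufflinks, and read counts were not used here. The authors used edgeR for their own tests.

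Genes at or above 1 FPKM in 3 or more samples of a fit were tested as log2(FPKM + 0.1) with limma 3.58.1 (R 4.3.3, trended prior variance), 2-sided, with Benjamini-Hochberg adjustment over all genes tested. Genotypes were compared within each age on their own 2 groups. Ages and the interaction were fitted on all 15 mice. Exact permutation tests (scipy 1.17.1) were run per member. The limma step was tested on simulated data. Depth is not given with FPKM, and the estimate from the smallest values gives no counting error. Nothing in the labels ties mice to litters, and p-values measure the spread between these mice.

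Alternatives were pseudocounts of 1 and 0.01, no filter and a stricter filter, median-of-ratios scaling, quantile normalization, removal of each sample's trend with gene length and GC content, a replicate block, a constant prior variance, other sets of groups in the fit and leaving out each mouse. Leaving out 2 mice of 10 weeks was added after seeing the data. Members, lists and tests were chosen with earlier results of these data known. Genes other than members were named by size, up to 3 called genes per list and comparison, and, for likeness, the 2 genes with the highest Pearson r over 15 mice. *Spink14*, *Flg*, *Krt85* and *Krt72* of the lists were not analysed here. Positions came from a GENCODE annotation of mm9, and promoters from RefSeq on GRCm38.p6 (9 of 10 members matched).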

Additional observations from a re-analysis of the deposited data

Results flagged for a closer look

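In 5 of the 30 groups of 4 mice examined for the members, 1 mouse lay far from the others by Dixon's test on FPKM at the 95% level, where chance gives about 1 in 20 independent groups. The 30 groups are 10 genes measured in the same mice and are not independent, so no excess can be read from that count. *Klk6* (76.9 FPKM against at most 13.7 in the other mice) and *Klk13* (18.0 against at most 4.72) were high in labelled cKO mouse 3 of 10 weeks, which was also the mouse with the high *Krt6b*, and *Klk14* was at 0 FPKM there against 0.102 in the next mouse. For *Klk14*, 1 read was estimated at 0.0468 to 0.0709 FPKM. *Klk11* was high (42.4 against 36.2 FPKM) in labelled cKO mouse 1 of 2 weeks. *Spink5* was low (126 against 185 FPKM) in labelled cKO mouse 2 of 2 weeks, a value still above every wild-type mouse.

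The genotype effect differed between the ages for *Spink5* (interaction -1.34 on the log2 scale) and *Klk10* (1.14), by the limma interaction term. Both calls were lost when certain single mice were left out.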

How the results depend on the processing

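The number of members called at 2 weeks was 1, and 2 with median-of-ratios scaling, quantile normalization or removal of the length and GC trend, and 1 to 2 when a mouse was left out. Calls over all genes were 1951 of 13524, and 2190, 2695 and 1689 with these alternatives in that order. They ran from 859 to 3348 when a mouse was left out. The number of members called at 10 weeks was 1, and 0 with the same 3 alternatives, with the replicate block and without 2 mice of 10 weeks (wild type 1 and labelled cKO 3), and 0 to 2 when a mouse was left out. Calls over all genes were 1957 of 13105, and 1668, 1699, 1279, 1899 and 489 with these alternatives in that order. They ran from 745 to 2665 when a mouse was left out. Between ages in the wild type the number of members was 1, and 2 with a pseudocount of 1, the stricter filter, the length and GC correction, a constant prior variance or only the 2 groups compared, 3 with quantile normalization, 5 without the 2 mice, and 1 to 5 when a mouse was left out. Calls over all genes were 3559 of 13937, and 3083, 3538, 2295, 3551, 4439, 3327 and 2117 with these alternatives in that order. They ran from 2205 to 4519 when a mouse was left out. Between ages in the mice labelled cKO the number of members was 0, and 1 with median-of-ratios scaling, 1 without the 2 mice (*Klk6*, log2 FC -1.52) and 0 to 1 when a mouse was left out. Calls over all genes were 493 of 13937, 532 with that scaling and 304 without the 2 mice. For the interaction the number of members was 2, beside 3566 of 13937 genes in all. It was 1 with median-of-ratios scaling or the length and GC correction, and 1 to 2 when a mouse was left out. The cause was not tested.

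The members that changed sign were all uncalled. At 2 weeks these were *Klk8* (-0.0041 with quantile normalization, -0.02 without labelled cKO mouse 1) and *Klk11* (-0.02 with the length and GC correction, and from -0.02 to 0.08 when a mouse was left out). At 10 weeks they were *Klk8* (-0.08 with median-of-ratios scaling, -0.13 to 0.79 when a mouse was left out), *Klk9* (-0.04 with median-of-ratios scaling, -0.07 with quantile normalization, -0.18 to 0.66 when a mouse was left out) and *Klk5* (0.26 without the 2 mice, -0.36 to 0.31 when a mouse was left out). With age in the wild type they were *Klk5* (-0.01 with the length and GC correction, -0.38 without the 2 mice, -0.38 to 0.29 when a mouse was left out) and *Klk9* (-0.26 without the 2 mice, -0.26 to 0.47 when a mouse was left out). With age in the mice labelled cKO, *Klk13* (-0.72 to 0.25) and *Klk11* (-0.24 to 0.06) did so when a mouse was left out. In the interaction, *Klk8* (-0.28 with median-of-ratios scaling, -0.15 with the length and GC correction, -0.27 to 0.65 when a mouse was left out) and *Klk6* (-0.03 to 1.48 when a mouse was left out) did so.

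The labels do not say that replicate numbers pair the mice. Same-numbered mice deviated from their group means with r between -0.06 and 0.06 (2 weeks) and between -0.20 and 0.04 (10 weeks). For differently numbered mice r lay between -0.14 and 0.09 (2 weeks) and between -0.21 and 0.16 (10 weeks). With so few mice a group, these values cannot exclude a pairing. The block lost the call of *Spink5* at 10 weeks (1 member called without the block, 0 with it) and changed no other call. Depth is unknown per gene, so low members such as *Klk14* carry no counting error.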

Other observations

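Keratins and gland genes gave a further view of the tissue in which the kallikreins were measured. Among 4 stress keratins, *Krt17* (log2 FC -1.24) and *Krt6a* (-1.08) were called lower in mice labelled cKO at 2 weeks, whereas *Krt6a* (2.90) and *Krt16* (2.35) were called higher at 10 weeks, and the interaction for *Krt6a* was 3.98 (limma adjusted p = 0.00071). The 3 mice labelled cKO of 10 weeks other than mouse 3 held 110.8 to 124.6 FPKM of *Krt6a*, and the wild-type mice at most 37.7. Of 6 sebocyte markers, 3 were called higher at 2 weeks, *Cidea* (1.63), *Elovl3* (1.40) and *Awat2* (1.11), and 3 at 10 weeks, *Scd3* (2.82), *Far2* (2.79) and *Mc5r* (1.72). Of 6 basal keratinocyte markers, 1 was called higher at each age, *Krt14* (1.02) at 2 weeks and *Itga6* (3.34) at 10 weeks. *Itgb4* (-1.43), *Col17a1* (-0.83), *Krt15* (-0.64) and *Krt5* (-0.39) had negative log2 FC at 2 weeks that were not called. The list median was -0.51 at 2 weeks and 0.71 at 10 weeks, where *Krt15* was again negative (-1.03, not called).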
